A study of Mus musculus with 8 samples.

Results

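The cells described here are 1224 macrophages from mouse glioma that carried mRNA of Inhba, which encodes the subunit of activin A, or of Nrg1, which encodes neuregulin-1. They came from 1 pooled library of CD45+ cells that the submitters isolated magnetically from tumours of glioma-bearing mice (4 samples). A matching library came from the brains of normal mice (4 samples). Strain, age, sex, tumour line and time after implantation are not given in the sources used here, and neither treatment nor genotype is named for either group. Each library carried 1 barcode suffix and no file tied a barcode to a mouse, so every value below describes 1 glioma library and 1 control library, no test between groups was possible, and intervals cover counting error only.

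The cells were chosen by thresholds on their own transcripts. A barcode entered with at least 2000 unique molecular identifiers (UMIs, each a captured transcript), at least 700 genes and at most 10% mitochondrial UMIs. A macrophage gate then required at least 4 UMIs over Csf1r, Fcgr1, Adgre1 and Cd14 and no UMI of Cd3d, Cd3e or Cd3g. Of the gated cells, those with a summed Inhba and Nrg1 level of at least 3 CP10K (UMIs per 10000 UMIs of the cell) were kept, provided that they were low in Arg1 (under 10 CP10K), in the interferon-induced Rsad2, Ifit1, Ifit2 and Ifit3 (under 10), in Mmp13 and Vcam1 (under 5) and in the cell cycle genes Top2a, Mki67 and Birc5 (under 3). In the glioma library 10487 barcodes passed the quality limits, 7108 passed the macrophage gate and 4346 passed every exclusion. The 1224 Inhba/Nrg1 macrophages were 11.7% of the quality-passing glioma cells (exact 95% binomial interval 11.1 to 12.3%) and 28.2% of the macrophages that passed every exclusion (26.8 to 29.5%). The other 3122 of those macrophages, called Inhba/Nrg1-low here, were the main comparison. Both libraries together held 22597 quality-passing cells.

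Activin A is a dimer of the TGF-beta family that binds type II and type I activin receptors and signals through Smad2 and Smad3, and follistatin holds it away from its receptors. Neuregulin-1 is an EGF-like growth factor that binds the ErbB3 and ErbB4 receptors and is best known in the brain for its action on glia and neurons. Thrombospondin-1 (Thbs1) is a matricellular protein that can activate latent TGF-beta and restrains blood vessel growth, whereas VEGF-A (Vegfa) drives it. Inhba lies on the plus strand at chr13:16011851-16031621, Nrg1 on the minus strand at chr8:31814551-32884029, Thbs1 on the plus strand at chr2:118111876-118127133 and Vegfa on the minus strand at chr17:46016993-46032369 (GRCm38). Macrophages of gliomas come both from microglia and from blood monocytes that enter the tumour.

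The proximal promoters of 3 genes are shown because they carry, or lack, the motifs searched below: Inhba, which defined the cells, and Il1rn and Olr1, which were among the genes highest in them. Each is the 250 bases before the start site from RefSeq (build GRCm38.p6), 5′ to 3′ on the gene's strand, at chr13:16011601-16011850 on the plus strand for Inhba, chr2:24336610-24336859 on the plus strand for Il1rn (the first of 3 starts listed) and chr6:129507166-129507415 on the minus strand for Olr1. Capitals mark TGAGTCA, which fits the AP-1 motif TGANTCA, and AAAGGTCA, a monomer motif bound by the Nr4a nuclear receptors.
Inhba: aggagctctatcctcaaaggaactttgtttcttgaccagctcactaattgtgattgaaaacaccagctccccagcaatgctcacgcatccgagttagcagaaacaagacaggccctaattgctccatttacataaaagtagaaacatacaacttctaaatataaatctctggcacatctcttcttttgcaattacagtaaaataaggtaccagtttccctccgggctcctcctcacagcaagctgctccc
Il1rn: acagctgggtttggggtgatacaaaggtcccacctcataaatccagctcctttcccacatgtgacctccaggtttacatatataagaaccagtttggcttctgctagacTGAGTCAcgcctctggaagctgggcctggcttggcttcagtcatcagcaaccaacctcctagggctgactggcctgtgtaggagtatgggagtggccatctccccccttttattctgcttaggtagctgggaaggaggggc
Olr1: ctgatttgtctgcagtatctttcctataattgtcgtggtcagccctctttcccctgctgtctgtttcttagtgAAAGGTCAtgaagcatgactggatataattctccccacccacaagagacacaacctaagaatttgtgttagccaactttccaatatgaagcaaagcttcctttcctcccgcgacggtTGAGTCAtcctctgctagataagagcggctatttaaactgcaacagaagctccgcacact
A search on both strands used 3 motifs: ACGTG, the core bound by hypoxia-inducible factors, AAAGGTCA and TGANTCA. RefSeq promoter entries were matched for 12 of 17 genes (Inhba, Nrg1 and the 15 highest genes named below), with 22 windows in all; Nrg1, Nos2, Adora2a, Arg2 and Thbs1 had no entry. ACGTG stood in windows of Pdpn, Sphk1 and Vegfa, AAAGGTCA in that of Olr1, and TGANTCA in those of Il1rn, Olr1, Ppbp, Sphk1 and Tnfrsf9. The Inhba window held none of them. Some genes had more than 1 window, and of the 22 windows 4 held ACGTG, 1 AAAGGTCA and 6 TGANTCA. Over all 32851 promoter windows of this length, 16.6% held ACGTG, 1.34% AAAGGTCA and 6.75% TGANTCA. A match describes letters in a window and is not a bound site.

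Such cells were nearly confined to the tumour library. Of the 7108 gated glioma macrophages, 1982 reached 3 CP10K of Inhba and Nrg1 (27.9%, interval 26.8 to 28.9%), and 1 of 11628 gated control cells did (0.00860%). All gated control cells together carried 18 Inhba and 9 Nrg1 UMIs, against 19168 and 10563 in the glioma gate. The control gate held mostly microglia by their defining genes: P2ry12, a microglial purine receptor, stood at 2136 CPM (UMIs per 1000000 UMIs of the summed class) and Tmem119, a microglial surface protein, at 1365 CPM. The libraries held 159689787 UMIs (glioma) and 124023146 (control). Barcodes with at least 300 UMIs in both libraries numbered 111, and 16 of the Inhba/Nrg1 macrophages were among them.

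Their markers fitted the macrophage label. The cells carried Lyz2, the myeloid lysozyme, at 5534 CPM and Cd68, a lysosomal macrophage protein, at 333 CPM. In T cell-gated glioma cells (863 cells) the same genes stood at 106 and 15.2 CPM. P2ry12 was at 6.86 CPM, Tmem119 at 9.87 CPM and Sall1, a transcription factor of microglia, at 0.0686 CPM. Markers of lymphocytes and tumour or glial cells were low: the summed level was 9.32 CPM over 12 T cell genes, of which Cd3d, Cd3e and Cd3g were set to 0 by the gate, 9.87 CPM over 8 NK cell genes, 8.30 CPM over 7 B cell genes and 30.4 CPM over 12 tumour or glial genes. Endothelial genes summed to 69.0 CPM over 8 genes, dendritic cell genes to 120 CPM over 12 and microglial genes to 158 CPM over 12. Mog, a myelin protein, and Sox2 were at 0 UMIs, which allows a level of up to 0.206 CPM. Neutrophil genes were higher, at 879 CPM over 10 genes, and are taken up again below.

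The rule fixed the levels of Inhba and Nrg1, so these are given as a description. The summed level per cell had a median of 6.95 CP10K and reached 128. Both transcripts were found in 731 cells (59.7%), Inhba without Nrg1 in 239 (19.5%) and Nrg1 without Inhba in 254 (20.8%). Of the 1224 cells, 23 were chosen on 1 UMI and 48 on 2, while 530 had 10 or more. Just inside the threshold, 102 cells had a median of 3.23 CP10K, and just outside it 174 cells had a median of 2.78, with median depths of 11908.5 and 11463.5 UMIs. Inhba stood at 701 CPM in the chosen cells and 21.6 in the Inhba/Nrg1-low ones, and Nrg1 at 298 and 46.4 CPM. Free RNA of the glioma library, taken from barcodes of 10 to 99 UMIs, held Inhba at 98.97 and Nrg1 at 52.3 CPM.

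**Figure D1:**
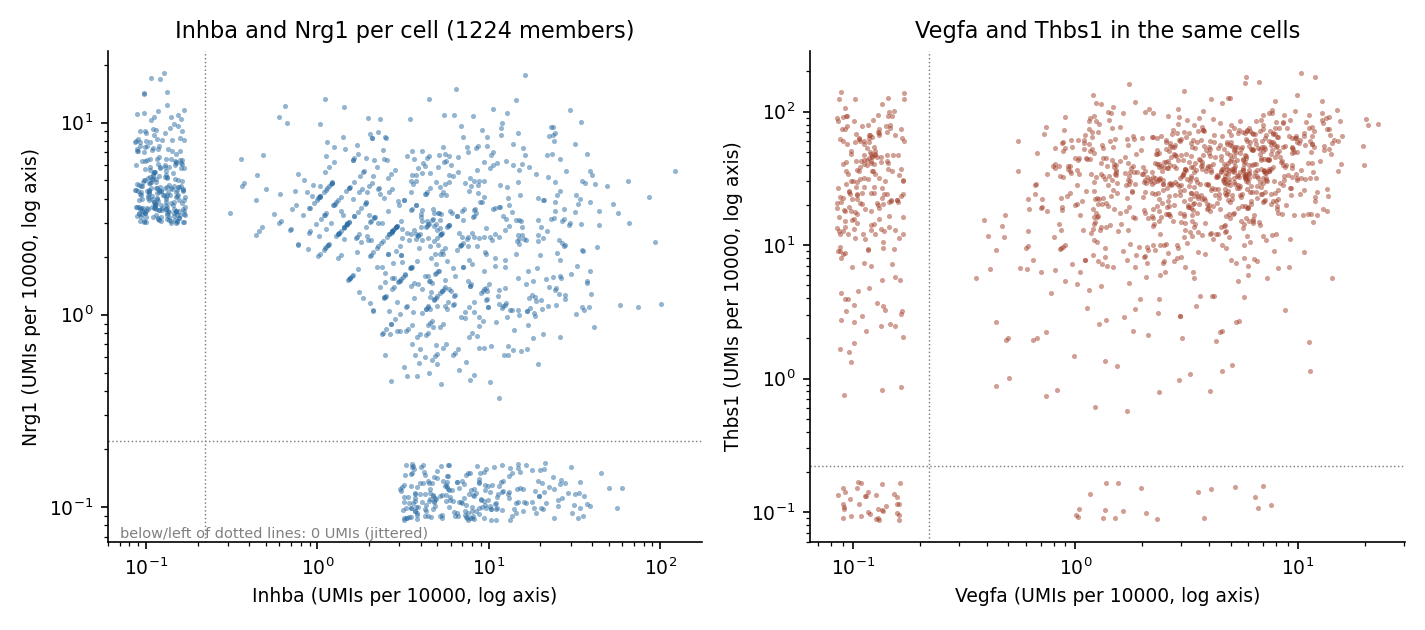
Levels in the 1224 Inhba/Nrg1 macrophages, 1 point per cell, in UMIs per 10000 UMIs of the cell on log axes. The left panel sets Nrg1 (vertical) against Inhba (horizontal) and shows an empty lower left corner, which the rule cut, and 2 bands of cells with 0 UMIs of one gene, drawn below or left of the dotted lines; the right panel sets Thbs1 against Vegfa, where most cells held both.

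Genes outside the rule were compared as sums. UMIs were summed over each class of cells, expressed as CPM and set against each other as a log2 ratio. Of 10831 genes with at least 50 UMIs, 52 (0.48%) were at least 2-fold higher in the Inhba/Nrg1 macrophages than in the Inhba/Nrg1-low ones and 468 (4.32%) at least 2-fold lower, and the median of all genes was -0.07. The chosen cells were slightly shallower, with a median of 10237 UMIs against 11976.

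The 15 highest genes with at least 200 UMIs held secreted factors, receptors and enzymes. Thbs1, the matricellular protein, was at 3214 CPM in the Inhba/Nrg1 macrophages and 1460 CPM in the low ones, a log2 ratio of 1.14 (interval 1.12 to 1.16). Per cell, Thbs1 ran from 0 through a median of 30.3 to 194 CP10K in the former and from 0 through 7.80 to 185 in the latter, so that both classes covered the same range. Vegfa was at 350 and 149 CPM (1.23, interval 1.18 to 1.28), with per-cell medians of 2.64 and 0.446 CP10K and 21.3% and 48.2% of cells at 0. Il1rn, which encodes the antagonist that blocks the IL-1 receptor, was at 624 and 250 CPM (1.32, interval 1.28 to 1.36), and it was found in 88.6% and 68.7% of cells. The medians differed for all 3 genes while the ranges overlapped.

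Among enzymes, Sphk1, which makes sphingosine 1-phosphate, was highest at 15.8 against 5.11 CPM (1.63). Nos2, the inducible nitric oxide synthase, was at 39.2 and 12.8 CPM (1.61) and Arg2, the mitochondrial arginase, at 98.6 and 44.0 CPM (1.17). Among surface proteins were Pdpn (podoplanin, 1.44), Olr1 (the receptor for oxidised low-density lipoprotein, 1.43), Adora2a (the adenosine A2a receptor, 1.31), Sdc1 (syndecan-1, 1.305), the calcium channel gene Cacna1d (1.20) and Tnfrsf9 (4-1BB, 1.15). Gab1, an adaptor that acts below receptor tyrosine kinases, was at 1.19. Several of these rested on few cells: Nos2 was found in 10.9% of the Inhba/Nrg1 macrophages, the EGF-family ligand Areg (41.5 and 15.1 CPM, 1.46) in 5.96%, and for the platelet chemokine gene Ppbp (1.17) 55 of 92 UMIs came from 1 cell.

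**Figure D2:**
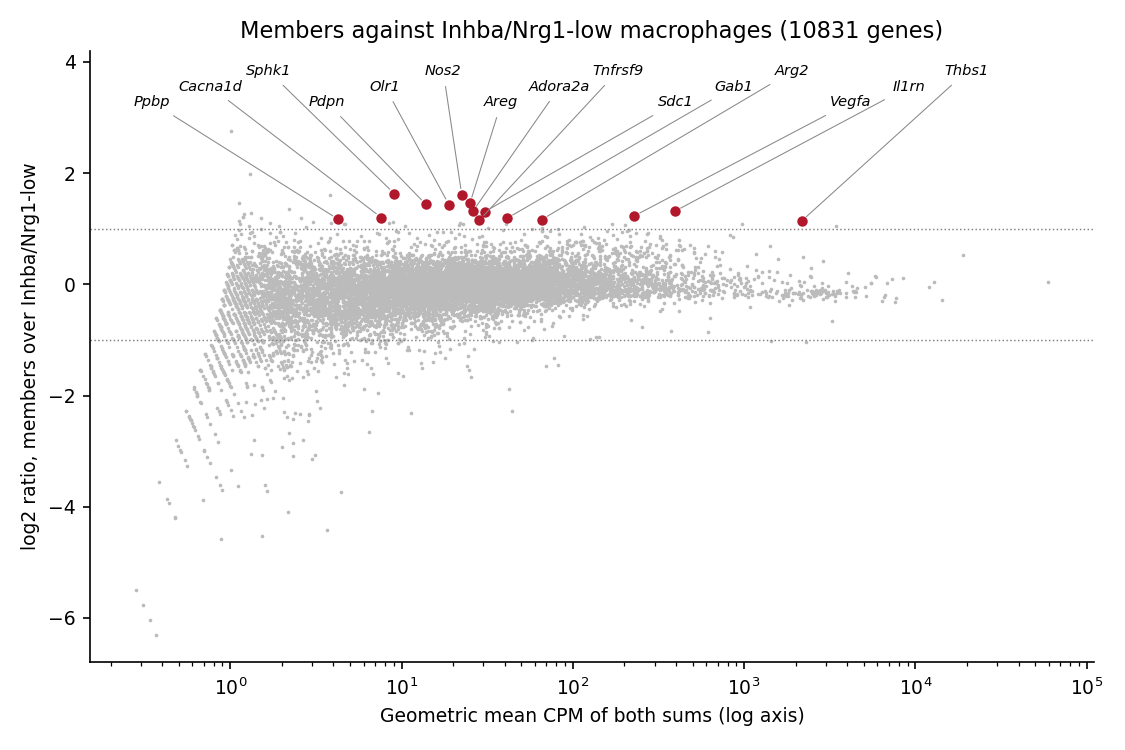
Each point is 1 of 10831 genes, with the geometric mean CPM of both sums on a log axis (horizontal) and the log2 ratio of Inhba/Nrg1 over Inhba/Nrg1-low macrophages (vertical); dotted lines mark 2-fold. The 15 named genes in red lie between 1.14 and 1.63, and Thbs1 is the most abundant of them.

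The choice of comparison cells moved these ratios. Against only the 1329 low macrophages that had at least 1 UMI of Inhba or Nrg1, a comparison added after the data were seen, all 15 genes were higher and 7 were at least 2-fold higher, with Thbs1 at 0.70 and Vegfa at 0.78. Where the Inhba and Nrg1 limit was read from each cell thinned to 2000 UMIs with all else at full depth, also added later, 11 of the 15 stayed above 2-fold, Thbs1 at 1.01 and Vegfa at 1.01; where the whole rule was reapplied to thinned cells, 5 did, Thbs1 was at 0.55, Vegfa at 0.69 and Arg2 at -0.17.

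In the activin and TGF-beta pathway, beyond the ligand gene that the rule used, 23 genes could be compared, of which 2 (Fst and Thbs1) were at least 2-fold higher and none lower, with a list median of 0.03. Receptor genes of activin were at like levels: Acvr1b, the type I activin receptor, was at 10.1 and 9.28 CPM (0.12) and Acvr2a, a type II receptor, at 11.2 and 11.8 CPM (-0.06). Tgfbr1 was lower by less than 2-fold, at 39.6 and 53.3 CPM (-0.43, interval -0.56 to -0.29). The signal transducers Smad2 (-0.09), Smad3 (0.12) and Smad4 (0.03), and the feedback inhibitor Smad7 (-0.14), lay near 0. Tgfb1 was at 330 and 292 CPM (0.18). Fst, which encodes the activin-binding follistatin, was at 2.47 and 0.360 CPM (2.75, interval 1.87 to 3.75), from 36 UMIs in 18 Inhba/Nrg1 macrophages and 15 UMIs in 14 low ones. The other subunit genes were nearly absent, with 0 UMIs of Inhbb and 0 of Inha in the chosen cells.

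In the neuregulin and EGF family, ligand genes went in both directions and the receptors were hardly seen. Of 9 genes compared, Areg was at least 2-fold higher and Ereg at least 2-fold lower, with a list median of 0.12. Intervals lay above 0 for 6 of the 9 and below 0 for 2. Hbegf, another EGF-family ligand, was at 30.6 and 21.2 CPM (0.53). Nrg2, another neuregulin gene, was at 2.33 and 3.93 CPM (-0.74, interval -1.33 to -0.21). For Ereg, epiregulin, 1 UMI stood against 77 (-4.18, interval -10.07 to -2.23), 29 of the 77 came from 1 cell, and the ratio was 0.60 where the limit was read at 2000 UMIs. The sheddases Adam17 (0.12) and Adam10 (0.07) were at like levels. Rhbdf2, a partner of Adam17, was higher by less than 2-fold (0.36). It was also, with Areg, higher at every step over the 5 bins of Inhba and Nrg1 described below. Egfr, Erbb2 and Erbb4 had 0 UMIs in the Inhba/Nrg1 macrophages, which allows up to 0.206 CPM each, and Erbb3 had 8 UMIs in 7 cells.

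Vessel and oxygen genes went in both directions, while matrix genes lay mostly higher. In the hypoxia-induced list 1 of 23 genes was at least 2-fold higher (Vegfa) and 3 lower (Angptl4, P4ha2 and Ddit4), with a median of 0.11. Mxi1 (0.88), Hilpda (0.85), Hif1a (0.73) and Ndrg1 (0.60) were higher by less than 2-fold, while Car9 (-0.72), Ankrd37 (-0.65) and Pdk1 (-0.50) were lower. No glycolysis gene of 17 passed 2-fold (median -0.00); Slc16a3, which exports lactate, was at 179 and 117 CPM (0.60). Among growth and angiogenic factors 1 of 15 was higher (Vegfa) and 5 lower, among them Pdgfb at 5.69 and 18.0 CPM (-1.65). The matrix, protease and coagulation list had a median of 0.55, with 17 of 23 intervals above 0 and 3 below, and with 1 gene past 2-fold higher (Thbs1) and 1 lower (Mmp9). In that list Mmp19, a matrix metalloproteinase, was at 297 and 152 CPM (0.97), Spp1, osteopontin, at 268 and 139 (0.95), the urokinase receptor gene Plaur at 439 and 239 (0.87), fibronectin (Fn1) at 361 and 217 (0.73) and the hyaluronan receptor Cd44 at 532 and 326 (0.71).

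Inflammatory genes held the most list members past 2-fold higher. Of 21 genes of the IL-1 family, cytokine and prostaglandin list, 5 were at least 2-fold higher (Nos2, Il23a, Il1rn, Il6 and Il1b) and 1 lower (Alox5), with a median of 0.46. Il23a rested on 26 and 27 UMIs in 18 and 16 cells. It fell under 2-fold with a mean over cells, without high doublet scores and at 5% mitochondrial UMIs. Il1b, the inflammatory cytokine whose receptor Il1rn's product blocks, was at 4932 and 2399 CPM (1.04), Ptgs2, the inducible cyclooxygenase, at 378 and 200 CPM (0.92) and Il1a at 38.0 and 20.9 CPM (0.86). Among 19 chemokine genes Cxcl2, a neutrophil attractant, was at 1411 and 669 CPM (1.08; -0.02 where the rule was reapplied to thinned cells), and Ccl22, Ccl12 and Ccl8 were lower; Ccl24 (549 and 315 CPM, 0.80) and Cxcl10 (433 and 242, 0.84) were higher by less than 2-fold. Of 17 immunosuppressive mediators, 1 (Il1rn) passed 2-fold. The checkpoint ligand genes Cd274 (PD-L1, 246 and 166 CPM, 0.57) and Pdcd1lg2 (PD-L2, 59.6 and 35.2, 0.76) were higher by less than that.

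Immediate early genes went in both directions. Of 26 genes on that list none was at least 2-fold higher and Dusp4 was lower, with a median of -0.20. Of the Nr4a nuclear receptors, Nr4a2 was at 155 and 98.2 CPM (0.66, interval 0.59 to 0.74), Nr4a3 at 122 and 74.8 CPM (0.70, interval 0.62 to 0.79) and Nr4a1 at 95.03 and 118 CPM (-0.31, interval -0.39 to -0.22). Against low macrophages with an Inhba or Nrg1 UMI the ratios were 0.50, 0.36 and 0.04. Crem (0.93), Ier3 (0.85), Dusp5 (0.65), Maff (0.65) and Fosl2 (0.62) were higher, and Klf2 (-0.95), Atf3 (-0.94), Egr1 (-0.66) and Jun (-0.60) were lower. Heat shock genes, which also respond to tissue dissociation, were lower in part: 3 of 12 passed 2-fold (Hspb1, Hspa1a and Hspa1b), with Hspa1a at 1611 and 3318 CPM (-1.04). The part of handling in the early gene values was not tested.

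In the transcription factor list (25 genes, none higher and Bhlhe41 lower, median 0.08), the NF-kappaB gene Nfkb1 (344 and 202 CPM, 0.77), Ets2 (279 and 165, 0.76), Rel (0.54) and Cebpb (1834 and 1338, 0.45) were higher, and Cebpa (-0.95) and Maf (-0.81) lower. The stress list (17 genes, none past 2-fold higher, Phgdh lower, median -0.13) went in both directions, with the cystine transporter gene Slc7a11 at 371 and 199 CPM (0.90), Txnrd1, thioredoxin reductase, at 293 and 160 CPM (0.87) and Srxn1 at 0.68, against Atf4 at 0.07, Asns at -0.26 and Phgdh at -1.01. Where the rule was reapplied to thinned cells Slc7a11 was at -0.00, Phgdh at 0.68 and, of the cholesterol genes below, Lss at 0.72. Of 19 genes of cholesterol synthesis 1 was lower (Lss) and the median was -0.48, with Sqle, squalene epoxidase, at 11.8 and 17.6 CPM (-0.58, interval -0.83 to -0.34). The cholesterol exporter Abca1 was at 166 and 80.8 CPM (1.04).

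The monocyte list had a median above and the resident macrophage list a median below that of all genes, both by less than 2-fold. Of 9 monocyte genes none passed 2-fold higher and 1, Ly6c1, was at least 2-fold lower on few UMIs (11 against 73, -1.16, but 0.11 where the rule was reapplied to thinned cells), with a median of 0.44. Ccr2, the receptor that brings monocytes into tissue, was at 176 and 207 CPM (-0.24). Higher members were Ly6c2, the surface antigen of inflammatory monocytes, at 214 and 137 CPM (0.64), Chil3 at 902 and 605 (0.58) and the clotting factor gene F13a1 at 78.9 and 48.7 (0.70). Of 10 resident macrophage genes 1, Gas6, was at least 2-fold lower (median -0.30), with the complement gene C1qa at 1609 and 2078 CPM (-0.37), Maf at -0.81 and the mannose receptor Mrc1 at 0.01. MHC class II genes (11, none past 2-fold) had a median of -0.11, with 4 intervals above 0 and 7 below. Among the lower ones were the class II transactivator gene Ciita, at 41.8 and 81.6 CPM (-0.96, interval -1.09 to -0.84), and H2-Oa (-0.89), while H2-Aa was slightly higher (0.15).

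Markers of dendritic cells, microglia and neutrophils were lower in the Inhba/Nrg1 macrophages than in the low ones, and their part in the other differences was not tested. Of 12 dendritic cell genes 10 were at least 2-fold lower, with Ccr7 at 5.07 and 25.3 CPM (-2.31) and Ccl22 at 2.54 and 16.2 CPM (-2.66). Of 10 microglial genes 7 were, with Cx3cr1, the fractalkine receptor, at 21.9 and 81.5 CPM (-1.89, but 0.065 where the rule was reapplied to thinned cells), and of 9 neutrophil genes 4 were, with Retnlg at 49.4 and 123 CPM (-1.32). Ngp, a neutrophil granule gene (-4.53), and the keratin genes Krt18 (-3.60) and Krt8 (-2.85) were also among the 15 lowest. Reapplied to thinned cells, Ngp and Krt8 were each at 1.21, on few UMIs. At full depth, 219 of the 296 Ngp UMIs in the low class came from 1 cell. Without cells that had a UMI of any of 9 genes of other lineages, Thbs1 stayed at 1.12 and Vegfa at 1.19. Ngp was at 2.17 there, from at most 4 UMIs in the Inhba/Nrg1 macrophages. Retnlg was itself among the 9 genes, so no UMI of it was left to compare.

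Levels followed the amount of Inhba and Nrg1 step by step for part of these genes. The 4346 macrophages were divided by their summed Inhba and Nrg1 level into 0, above 0 to under 3, 3 to under 6, 6 to under 12, and 12 or more CP10K, with 1793, 1329, 519, 399 and 306 cells and median depths of 10477, 14067, 11146, 10675 and 9227 UMIs. Over these 5 bins 560 genes (5.17% of 10831) were higher at every step and 916 (8.46%) lower at every step. Thbs1 stood at 961, 1974, 2997, 3078 and 3861 CPM. Vegfa went 95.9, 204, 296, 372 and 427 CPM. For Il1rn the values were 200, 302, 482, 539 and 1039 CPM. All 3 therefore also differed among the Inhba/Nrg1 macrophages themselves, and the second bin, which the rule left out, lay between the cells with none and the chosen ones.

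By list, 8 of 21 IL-1 family and cytokine genes were higher at every step (Il1b, Il1rn, Il1r2, Il6, Ptgs2, Nos2, Nfkbia and Socs3), 7 of 23 matrix genes (Thbs1, Mmp19, Plaur, F7, F10, Tgm2 and Cd44), 5 of 23 hypoxia-induced genes (Vegfa, Ndrg1, Hilpda, Plin2 and Hif1a) and 6 of 25 transcription factors (Cebpb, Hif1a, Rel, Nfkb1, Nfkb2 and Ets2). Il1b ran 2002, 2808, 4300, 5052 and 6052 CPM. Nos2 stood at 9.10, 16.6, 28.1, 29.3 and 76.4 CPM. Its largest step was the last one. Nr4a2 went 86.7, 110, 138, 158 and 187 CPM and Nr4a3 55.5, 94.8, 108, 121 and 152, both higher at every step. Nr4a1 was 142 in the cells with none and 92.3, 97.8, 88.7 and 98.7 CPM in the rest, with no order. Of 10 resident macrophage genes 5 were lower at every step (C1qa, C1qb, C1qc, Selenop and Gas6), C1qa from 2254 to 1184 CPM, and 4 of 19 cholesterol synthesis genes were (Sqle, Idi1, Dhcr7 and Mvd).

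**Figure D3:**
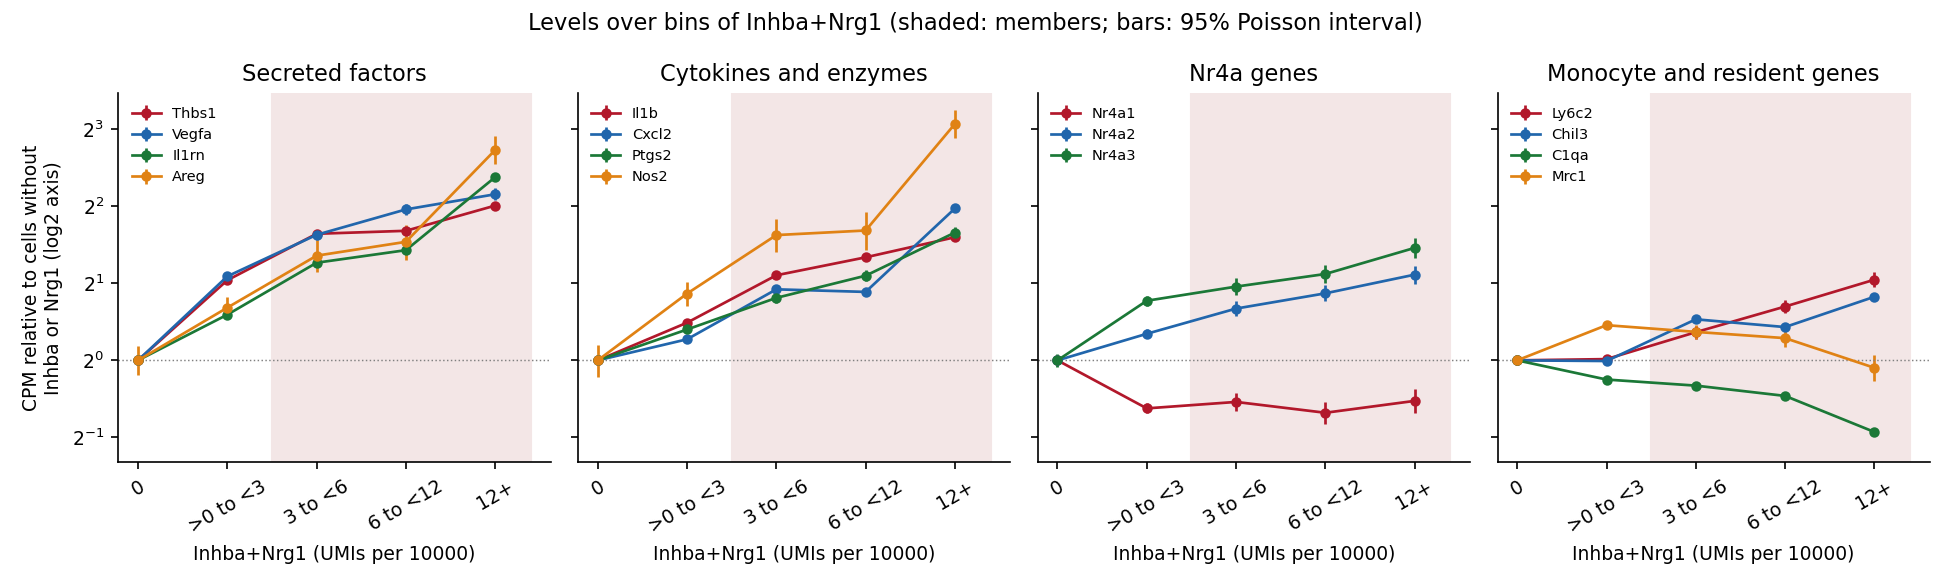
CPM in 5 bins of the summed Inhba and Nrg1 level (horizontal, UMIs per 10000), relative to the cells with none (vertical, log2 axis), with 95% Poisson intervals of the sums as bars and the bins of the Inhba/Nrg1 macrophages shaded. Thbs1, Vegfa, Il1rn, Il1b, Nr4a2, Nr4a3 and Ly6c2 climb, C1qa declines, and Nr4a1 drops once and then stays level.

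The cells with only one of the transcripts differed from each other. Of 6562 genes, 126 (1.92%) were at least 2-fold higher in the 239 cells with Inhba alone than in the 254 with Nrg1 alone and 46 (0.701%) at least 2-fold lower. Cells with Inhba alone were higher in Cxcl3, a neutrophil chemokine (229 and 40.3 CPM, 2.499), in Spp1 (590 and 110 CPM, 2.42), in Slpi, a protease inhibitor (387 and 84.2 CPM, 2.20), and in Nos2 (64.6 and 3.24 CPM). Cells with Nrg1 alone were higher in genes of mature tissue macrophages: Mrc1 stood at 65.9 CPM in the Inhba-alone and 175 CPM in the Nrg1-alone cells (-1.40), Selenop at 62.7 and 180 (-1.52) and Ms4a7 at 31.4 and 74.2 (-1.23). None of these 3 stayed past 2-fold with the rule reapplied to thinned cells (Mrc1 -0.79, Selenop -0.98, Ms4a7 -0.46) or with the limit read at 2000 UMIs (-0.74, -0.65 and -0.79). Chil3 was at 872 and 1132 CPM. Thbs1, at 2781 and 3579 CPM, and Vegfa, at 284 and 378, were both lower in the cells with Inhba alone, and cells with both transcripts lay between, at 3206 and 357 CPM.

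Lists told these cells apart too. Of 19 hypoxia-induced genes 5 were at least 2-fold higher with Inhba alone (Egln3, Ero1l, Hilpda, Bnip3 and Pdk1) and none lower, with a list median of 0.50; over the alternatives this median lay between 0.19 and 0.54. No glycolysis gene of 17 passed 2-fold, with a median of 0.43. Resident macrophage genes had 3 of 9 lower (Selenop, Mrc1 and Apoe) and a median of -0.76. Neutrophil genes had 5 of 7 higher and a median of 1.97, with S100a8 at 899 and 177 CPM (2.34). Of all 1224 Inhba/Nrg1 macrophages, 48 held at least 10 neutrophil-list UMIs among 2000, these 48 held 94.2% of the S100a8 and S100a9 UMIs of the whole class, and 27 of them had Inhba alone. Depths were 8476 and 9690 UMIs in the median, and the part of the neutrophil-gene cells in the other differences was not tested.

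Cells that the rule left out allowed the same split where it had not been used. The Arg1-high, interferon, Mmp13/Vcam1 and cycling macrophages (908, 340, 1575 and 506 cells, partly overlapping) were each divided at 3 CP10K of Inhba and Nrg1. They belong to the same library, so they are other cells and not other mice. The share at or above 3 CP10K was 43.4% of Arg1-high cells (interval 40.1 to 46.7%), 36.8% of interferon cells (31.6 to 42.1%), 22.5% of Mmp13/Vcam1 cells (20.5 to 24.7%) and 12.1% of cycling cells (9.35 to 15.2%). It was 0.463% of T cell-gated cells (4 of 863). Macrophages outside each class had 25.6%, 27.4%, 29.4% and 29.1%. Inhba and Nrg1 were thus found across all macrophage classes and most often where Arg1 was high.

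Within Arg1-high cells (394 against 514) all 15 genes named above were higher on the Inhba/Nrg1 side and 5 of them at least 2-fold, with a median of 0.94; of all 8591 genes compared there 47.2% were higher and 0.722% at least 2-fold higher. Within Mmp13/Vcam1 cells (355 against 1220) 15 of 15 were higher and 13 at least 2-fold (median 1.26), against 39.2% and 1.01% of all genes. Within interferon cells (125 against 215) 12 of 12 with enough UMIs were higher and 10 at least 2-fold (median 1.26), against 48.0% and 1.17%. Within cycling cells (61 against 445) 13 of 14 were higher and 11 at least 2-fold (median 1.43), against 43.3% and 1.84%; Areg was the exception (-0.77). In interferon cells Areg, under the minimum of 50 UMIs, was also lower, with 2 UMIs against 41 (-3.09, interval -6.48 to -1.44). Apart from Areg in these 2 classes, those of the 15 genes that could be compared were also higher beside Inhba and Nrg1 in cells chosen for other transcripts. Intervals lay above 0 for 15 of 15 in Arg1-high and in Mmp13/Vcam1 cells, 11 of 12 in interferon cells and 11 of 14 in cycling cells. The classes are not separate repeats, since the Arg1-high and Mmp13/Vcam1 classes shared 255 cells. Arg1 was itself higher on the Inhba/Nrg1 side of interferon (1.34), Mmp13/Vcam1 (0.95) and cycling cells (1.37), and level within Arg1-high cells (0.02). Its part in the other ratios was not tested.

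Thbs1 had ratios of 0.94, 1.23, 1.10 and 1.46 in the Arg1-high, interferon, Mmp13/Vcam1 and cycling cells. Vegfa had 0.88, 0.80, 1.16 and 1.43 in the same order. Il1rn had 0.997, 1.26, 1.16 and 1.35. Nr4a2 (0.58, 0.78, 0.48 and 0.45) and Nr4a3 (0.88, 0.77, 1.09 and 1.26) were higher in each class, whereas Nr4a1 (-0.31, -0.06, 0.06 and -0.47) was not. C1qa was lower in each (-0.56, -0.49, -0.35 and -0.22), as was Ciita (-1.06, -1.29, -1.38 and -1.34). In every class the Inhba/Nrg1 side was the shallower one, from 8224 against 8932 UMIs in interferon cells to 21582 against 25819 in cycling cells.

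**Figure D4:**
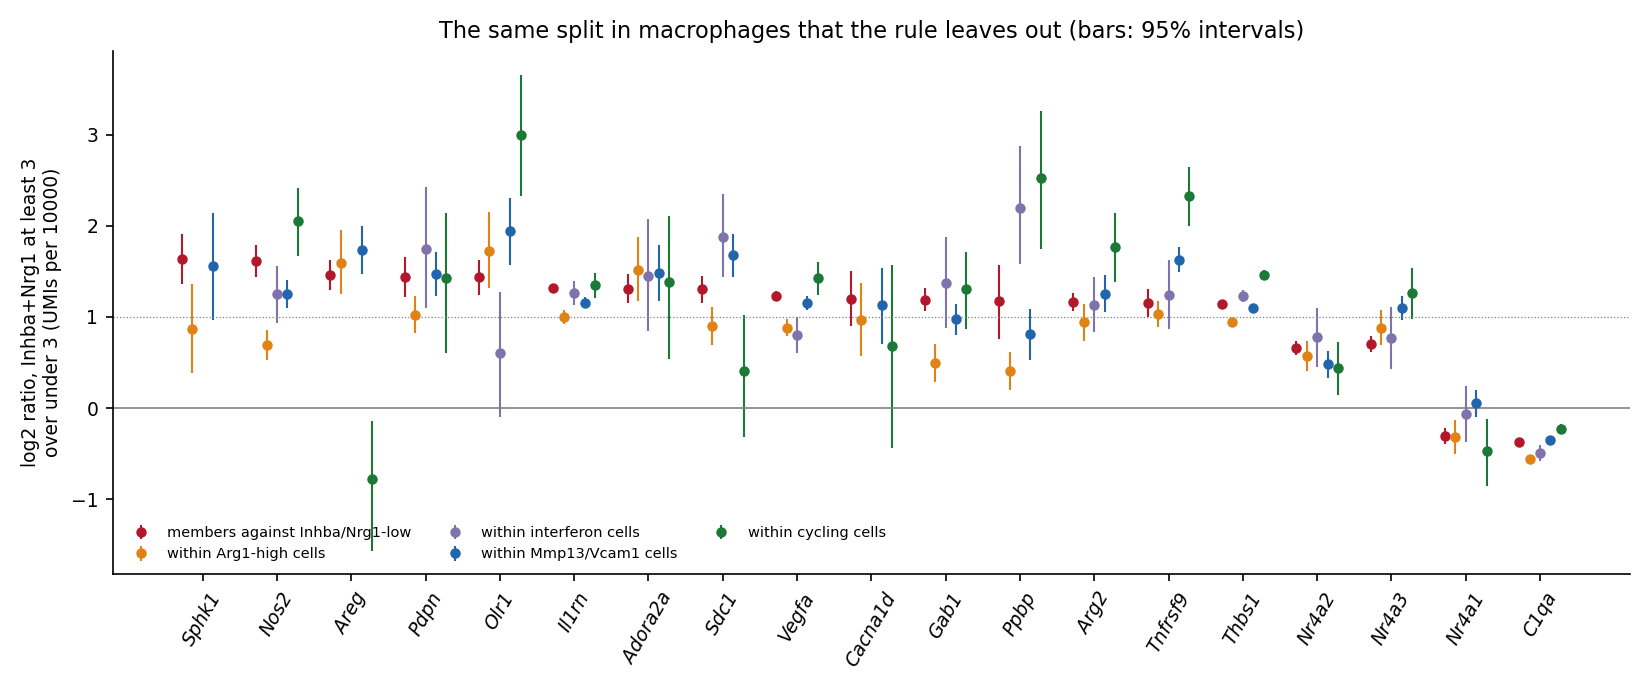
Log2 ratio of CPM between cells with at least 3 and under 3 UMIs of Inhba and Nrg1 per 10000 (vertical) for the 15 named genes, the Nr4a genes and C1qa (horizontal), in the chosen macrophages and within 4 classes that the rule leaves out; bars are 95% intervals and the dotted line marks 2-fold. Nearly all points of the 15 genes lie above 0 in every class, Areg in cycling cells lies below, and C1qa lies below 0 throughout.

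Set against whole classes, which were not divided by Inhba and Nrg1, the Inhba/Nrg1 macrophages were highest in Thbs1 and Vegfa, closely followed by the Arg1-high cells. Arg1-high cells with at least 3 CP10K of Inhba and Nrg1 stood higher still, at 4007 CPM of Thbs1 and 460 of Vegfa, as did such interferon cells in Thbs1 (3511) and such Mmp13/Vcam1 cells in Vegfa (363). Thbs1 was at 3214 CPM, against 2852 in Arg1-high, 2179 in interferon, 1779 in Mmp13/Vcam1, 1460 in Inhba/Nrg1-low and 1129 in cycling macrophages, 26.0 in T cell-gated glioma cells and 35.0 in gated control cells. Vegfa stood at 350, 333, 249, 203, 149, 111, 8.27 and 5.96 CPM in the same classes. Free RNA of the glioma library held 869 CPM of Thbs1 and 135 of Vegfa. When each cell was thinned to 2000 UMIs, 89.7% of the Inhba/Nrg1 macrophages and 6.14% of the T cell-gated cells (7261 UMIs in the median) had a Thbs1 UMI; at full depth these were 95.3% and 19.8%. For Vegfa the thinned shares were 42.2% and 1.27%, and the full-depth shares 78.7% and 6.14%.

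**Figure D5:**
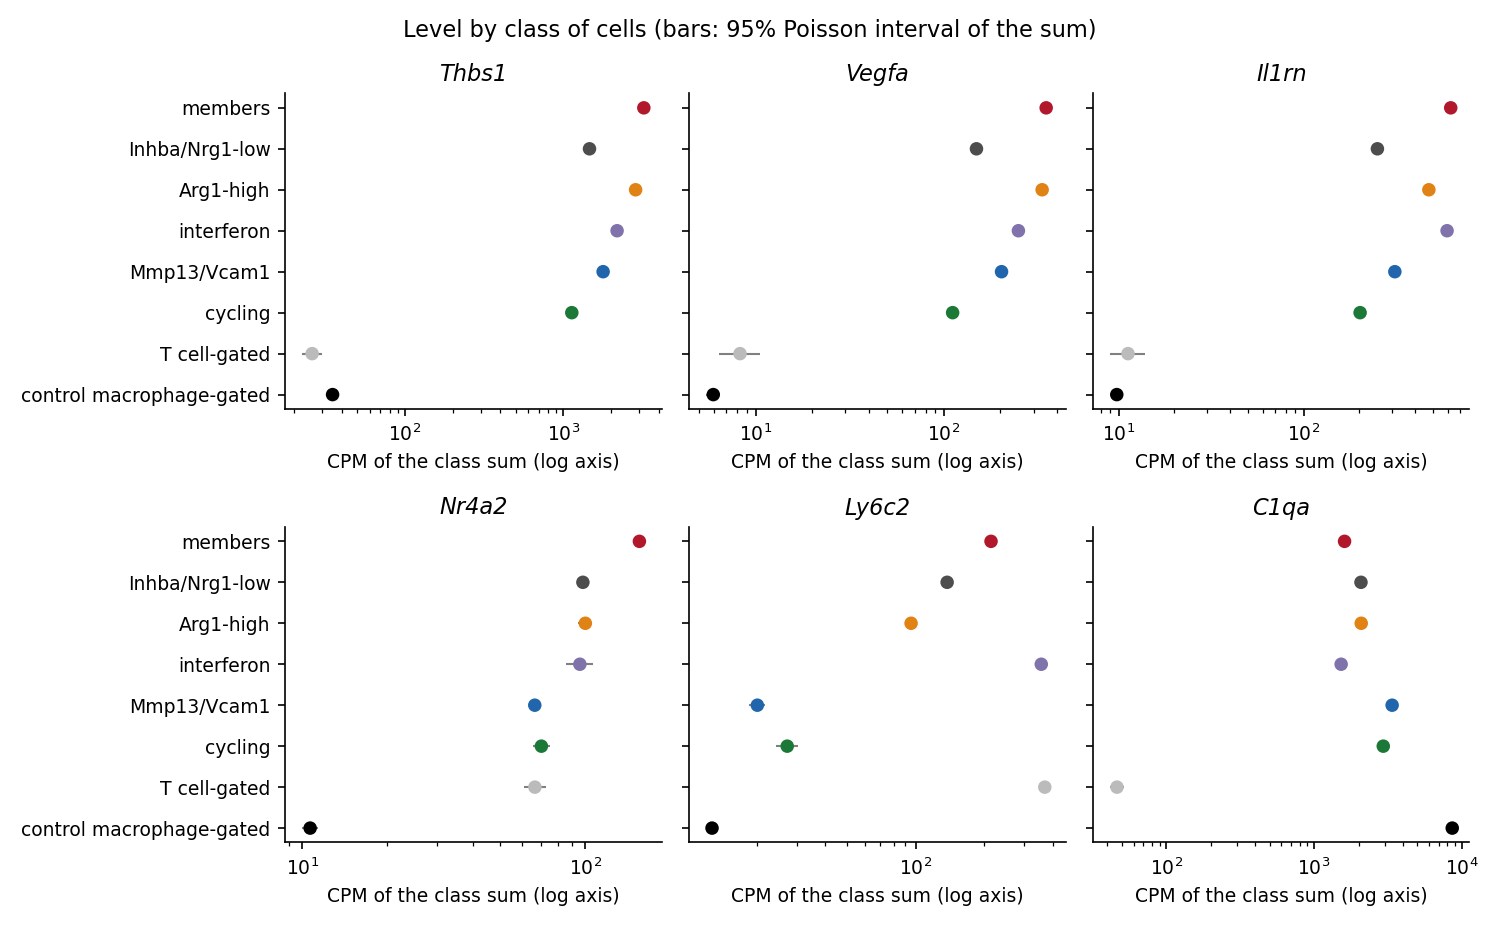
Summed CPM (horizontal, log axis) of 6 genes in 8 classes of cells, with 95% Poisson intervals as bars, many narrower than the points. Thbs1, Vegfa and Nr4a2 are highest in the Inhba/Nrg1 macrophages (members in the plot), C1qa is highest in the control cells, and Ly6c2 is higher in interferon and T cell-gated cells than in the members.

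Against the 908 Arg1-high macrophages, 87 of 9701 genes (0.897%) were at least 2-fold higher in the Inhba/Nrg1 macrophages and 318 (3.28%) at least 2-fold lower. The rule had removed Mmp13/Vcam1, interferon and cycling cells from the Inhba/Nrg1 side only. Of the 908 Arg1-high cells, 255 were also Mmp13/Vcam1 cells, and these 255 belong to the Mmp13/Vcam1 class below too. The part of these cells in the differences was not tested. Oxygen-related genes were lower as a list: 10 of 22 hypoxia-induced genes were at least 2-fold lower and none higher, with a median of -0.76, and glycolysis genes had 1 of 17 lower and a median of -0.62. Of 19 chemokine genes 11 were lower and 2, Cxcl9 and Cxcl10, higher (median -1.02), with Pf4 at 127 and 1428 CPM (-3.49) and Ccl8 at 11.2 and 59.8 (-2.42). Spp1, at 268 and 645 CPM, and the tissue macrophage gene Mrc1, at 122 and 368, were also higher in the Arg1-high cells. Higher in the Inhba/Nrg1 macrophages were 5 of 8 monocyte genes (median 1.07), with Plac8 at 1162 and 358 CPM (1.70), while F13a1 was at least 2-fold lower, at 78.9 and 278 CPM (-1.82). Of 18 interferon gamma-response genes 4 were higher and none lower (median 0.65), with the chemokine gene Cxcl9 at 1067 and 488 CPM (1.13) and the GTPase gene Gbp2 at 408 and 183 (1.15). Thbs1 and Vegfa differed little. Neutrophil genes were in part higher too (2 of 7), with Retnlg at 49.4 and 17.2 CPM (1.52).

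Against the 1575 Mmp13/Vcam1 macrophages, 239 of 10537 genes (2.27%) were at least 2-fold higher and 876 (8.31%) at least 2-fold lower. Monocyte genes stood out, with 7 of 8 higher and a median of 2.96: Chil3 was at 902 and 53.1 CPM (4.09), Ly6c2 at 214 and 20.1 (3.41) and Hp, haptoglobin, at 123 and 11.6 (3.40). Resident macrophage genes had 8 of 12 lower (median -1.33), with C1qa at 1609 and 3377 CPM and Gas6, a ligand of phagocytic receptors, at 1.10 and 21.8 (-4.27). Proliferation genes had 16 of 17 lower (median -2.51), a list from which the rule had removed the cycling cells on one side only. The Mmp13/Vcam1 cells were deeper, with a median of 18062 UMIs against 10237. Neutrophil genes were higher in 5 of 7, with S100a9 at 456 and 41.5 CPM (3.45).

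Beyond the macrophage gate, 259 of 3379 quality-passing glioma cells reached 3 CP10K of Inhba and Nrg1. In 175 of them a Cd3 UMI had closed the gate; their summed Inhba stood at 589 CPM, Thbs1 at 2603, Cd14 at 2025 and the T cell receptor gene Trac at 76.3 CPM, with a median depth of 14781 UMIs. The other 84 had too few gate UMIs and a median depth of 3026.5 UMIs. They carried Inhba at 804 CPM, S100a8 at 964, S100a9 at 1768 and the neutrophil receptor gene Csf3r at 155 CPM, against 281, 456 and 46.8 CPM for the last 3 in the Inhba/Nrg1 macrophages. Retnlg was lower in them (24.3 against 49.4 CPM), and Ccr7, the homing receptor of mature dendritic cells, was higher (258 against 5.07 CPM).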

How the data were processed

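The authors deposited 1 matrix of whole-number UMI counts per library (integer MatrixMarket, per the file headers), made from magnetically sorted CD45+ cells with a 3′ droplet kit (version 2 or 3) and Illumina sequencing, per the labels' protocols. Tools listed in the submitters' processing notes are Cell Ranger 3.0.2, Seurat 3 and STAR, beside the builds mm10 and GRCh38. From these counts, UMIs were summed per class and scaled to CPM. Ratios are log2 with 0.5 UMIs added to each sum, over genes with at least 50 UMIs in both sums together and without the 19 genes of the rule. Their 95% intervals are exact conditional binomial ones, those of levels exact Poisson and those of shares exact Clopper-Pearson, and all cover counting error only. UMIs absent from a sum were given the limit that 3 UMIs set. Python 3.11.15, numpy 2.4.6, scipy 1.17.1, pandas 2.3.3, scanpy 1.11.5 and matplotlib 3.10.9 were used. In counts simulated for the main comparison, 95.6% of intervals held the true ratio. These counts were drawn from a Poisson model without differences between cells, so they checked the calculation only. Doublets were not removed in the main values: Scrublet's automatic threshold marked 6.42% of 10487 cells, and an alternative left out the 880 highest scores, 66 of them Inhba/Nrg1 macrophages.

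The members and the gene lists were chosen with earlier results of these data known. Genes were named by rule: among those whose sums held 200 UMIs or more, leaving out mitochondrial, ribosomal and unnamed gene models, the 15 highest and 15 lowest in the main comparison, up to 4 genes farthest from 0 in each list (at least 50 UMIs), the 8 highest and 8 lowest in the other comparisons, and always Thbs1, Vegfa, the Nr4a genes and Sqle. The matrix list is given without 1 gene, which is not reported here. Other genes named come from the lists and were chosen after their values were seen. Alternatives were a mean over cells, thinning to 2000 UMIs, other limits on Inhba and Nrg1, on mitochondrial UMIs and on UMIs per gene, and leaving out doublet scores, other-lineage cells or shared barcodes.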

Additional observations from a re-analysis of the deposited data

How the results depend on the processing

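No paired analysis was possible because each group was 1 pooled library whose cells could not be tied to a sample, and for the same reason no replicate could be left out. The 15 highest genes stayed at least 2-fold higher with a limit of 6 CP10K (705 members), with at least 2 UMIs of Inhba and Nrg1, and without high doublet scores, other-lineage cells, shared barcodes or cells above 5% mitochondrial UMIs; with a mean over cells 14 did. Depth and the choice of low cells mattered more. With the rule reapplied at 2000 UMIs per cell, the macrophage gate and every transcript limit were read from the thinned counts. Fewer cells were left (863 members, 1199 low). In this setting 8 genes were 2-fold higher and 73 lower than in low cells, 50 and 79 against Arg1-high, 77 and 155 against Mmp13/Vcam1, and 41 and 12 between Inhba alone and Nrg1 alone. Log2 ratios against low cells that changed sign there were Arg2 -0.17, Cxcl2 -0.019, Lss 0.72, Phgdh 0.68, Mcm6 0.28, Gzma 0.26, Ly6c1 0.11, Igf1 0.11 and Cx3cr1 0.065. Ngp, Krt8 and Cd8a (1.21 each), Mgp (2.80) and Ccna2 (2.06) did too. The low sum held only 2398000 UMIs, so values of such scarce genes rested on few UMIs. Tm4sf1, Rhox5, Ppp1r14a, Fscn1, Col3a1, Cyr61 and Pclaf were each at 0.47. Equal UMI counts, 0 included, give that value because the low sum was the larger one. No change of sign was therefore measured for them. Slc40a1 reached 1.77 against Arg1-high cells. Without other-lineage cells Ngp was at 2.17 and Mgp at 0.54, from at most 4 and 10 UMIs in the Inhba/Nrg1 macrophages. Ly6g and Retnlg were themselves among the 9 genes of that filter, so no UMI of them was left. Their values there (1.43 each and, for Retnlg against Arg1-high cells, -0.23) came only from the 0.5 UMIs added to unequal sums. At 5% mitochondrial UMIs Ctsk was at 0.17 and Mmp9 at 0.10. A mean over cells left 84 genes 2-fold lower with Inhba alone. Counts of genes followed the minimum of UMIs per gene, since fewer or more genes were compared: with 200 UMIs 32 and 141 (low), 43 and 131 (Arg1-high), 151 and 418 (Mmp13/Vcam1) and 35 and 9 (split) were higher and lower, and with no minimum 942 and 1815, 1360 and 2107, 1227 and 2283, and 1452 and 1411. In the 2 alternatives chosen after seeing the data, low cells with an Inhba or Nrg1 UMI gave 18 higher and 213 lower, with Bhlhe41 at 0.73, and the limit read at 2000 UMIs (1332 members) gave 27 and 277, with Ereg at 0.60, and 59 genes higher with Inhba alone; there 8 of 16 genes named between Inhba alone and Nrg1 alone stayed past 2-fold, and Mrc1, Selenop and Ms4a7 did not. Where no cause is given, the cause was not tested.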

Other observations

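The remaining lists compared the Inhba/Nrg1 with the Inhba/Nrg1-low macrophages, where the median of all genes was -0.07. Of 18 interferon gamma-response genes none was at least 2-fold higher and Gbp2b was lower (median 0.25, with 12 intervals above 0 and 4 below), and of 15 type I interferon genes none passed 2-fold (median 0.10). Of 20 lysosome and phagocytosis genes only Gas6 was past 2-fold, on the lower side (median -0.04), and the 6 macrophage identity genes outside the rule had a median of 0.05. The list of 17 proliferation genes was touched on both sides by the limit on Top2a, Mki67 and Birc5. In it 3 genes were at least 2-fold lower (Ccna2, Pclaf and Mcm6), 13 had intervals below 0, and the median was -0.72. Where the rule was reapplied to thinned cells, Mcm6 was higher by less than 2-fold and Ccna2 was higher on few UMIs. The value of Pclaf there was the one that equal UMI counts give, so no change of sign was measured for it.

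Some heat shock and immediate early genes differed between the cells with Inhba alone and those with Nrg1 alone, and the part of handling in this was not tested. Of 12 heat shock genes 3 were at least 2-fold higher with Inhba alone (Hspa1a, Hspa1b and Hspb1; median 0.49), with Hspa1a at 3282 and 985 CPM (1.74). Of 23 Nr4a and immediate early genes 4 were (Atf3, Klf2, Egr1 and Maff; median 0.23), with Atf3 at 119 and 42.1 CPM. Nr4a2 was level at 148 and 150 CPM. Of 15 genes of cholesterol export and lipid handling 3 were at least 2-fold higher with Inhba alone (Lpl, Fabp4 and Cd36) and 1 lower (Apoe), with a median of 0.14. Lpl, lipoprotein lipase, was at 42.4 and 11.5 CPM (1.87), and Apoe at 6116 and 12629 CPM (-1.05).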
